A study of Mus musculus with 10 samples.

Results

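The Hox genes were examined as molecular marks of position along the gut, on microarrays of mice without Cftr and of controls. All genes whose symbol in the platform annotation is Hox followed by a letter a to d and a number were taken, 33 genes of the 18193 with a single symbol, each through its brightest probe set on average over the 10 arrays. The levels of no group entered this choice. RNA of 8 knockouts and 2 controls was hybridized; all were labelled B6xBALB F2, the second generation after B6 mice were crossed to BALB mice. The knockouts are labelled CF knockout, for Cftr, the chloride and bicarbonate channel of epithelia, and carry a code H (5 samples) or L (3 samples) that the labels do not spell out; the series title speaks of variable weight. The controls carry D and W in their codes, letters that the labels leave unexplained and that cannot be told apart from the intact Cftr gene. Every title holds the letter M (6 samples) or F (4 samples) and a number; the numbers form a lower range (both controls and 3 knockouts) and an upper range (5 knockouts). The labels give no age, diet or kind of Cftr allele.

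Hox genes encode homeodomain transcription factors that lie in the clusters Hoxa, Hoxb, Hoxc and Hoxd. Within a cluster, genes with low numbers are expressed from anterior levels of the body onward and genes with high numbers only at posterior levels, and the same order holds along the developing gut. Genes of middle number are active in the mesenchyme of the midgut, and the highest-numbered genes mark the hindgut, from which the colon and rectum form. In the adult bowel much of the Hox signal comes from the muscle and connective tissue, while the related ParaHox factors Cdx1 and Cdx2 act in the epithelium.

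Promoter stretches of 4 members show the sequence context of the genes to which the results return below: Hoxa5, which gave the highest signal, Hoxb4 and Hoxd9, which had the smallest p in a comparison of animals, and Hoxa13, at the posterior end of its cluster. Each stretch is the 200 bases before the annotated transcription start, 5′ to 3′ on the gene's strand, from RefSeq on GRCm38.p6. Capitals mark CG dinucleotides, the bases at which DNA is methylated and whose density defines CpG islands.
Hoxa5, chr6:52204588-52204787, minus strand: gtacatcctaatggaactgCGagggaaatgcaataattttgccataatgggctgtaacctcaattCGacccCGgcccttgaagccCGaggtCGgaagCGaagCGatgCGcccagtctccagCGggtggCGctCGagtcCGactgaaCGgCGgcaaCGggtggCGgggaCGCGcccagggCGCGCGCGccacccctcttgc
Hoxb4, chr11:96318067-96318266, plus strand: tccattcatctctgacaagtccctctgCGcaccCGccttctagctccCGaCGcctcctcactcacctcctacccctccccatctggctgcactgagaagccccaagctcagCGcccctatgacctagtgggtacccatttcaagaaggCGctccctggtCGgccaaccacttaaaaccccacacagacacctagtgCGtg
Hoxd9, chr2:74697563-74697762, plus strand: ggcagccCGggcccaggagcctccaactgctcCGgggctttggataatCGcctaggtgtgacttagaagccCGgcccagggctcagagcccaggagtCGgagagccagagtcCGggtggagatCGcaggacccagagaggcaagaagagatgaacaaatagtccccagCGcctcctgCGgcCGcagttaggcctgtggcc
Hoxa13, chr6:52260881-52261080, minus strand: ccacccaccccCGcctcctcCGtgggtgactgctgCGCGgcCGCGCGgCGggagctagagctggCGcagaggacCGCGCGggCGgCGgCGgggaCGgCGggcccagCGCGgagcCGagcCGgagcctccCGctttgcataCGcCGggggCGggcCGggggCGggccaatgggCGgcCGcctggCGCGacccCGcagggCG

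The 4 stretches held 22, 8, 10 and 33 CG dinucleotides, most in Hoxa13. Of the 33 Hox genes, 19 matched an entry of the promoter table, with 21 start sites. Over windows of 300 bases (250 before and 50 after the start), the Hox promoters had a median of 15 CG dinucleotides, against 7 over all 32851 promoters. Those of members above the low-value filter described next had a median of 11.5 (8 promoters) and those of members below it 20 (13 promoters). The letters TTTATG, the core of the site that Cdx factors bind, stood on either strand in 3 of the 21 Hox promoters (14.3%) and in 11.9% of all promoters. These matches describe the windows and are not binding sites.

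Of the 33 Hox genes, 17 had a mean above the low-value filter, which left out the dimmest 25% of all genes (a mean equivalent to an intensity of 13.6 or less). All 17 carry numbers from 2 to 9. None of the 10 genes numbered 10 to 13 passed it: their means lay between 7.66 and 13.3, and no array exceeded 16.3 for any of them. Of the 23 genes numbered 1 to 9, 17 passed, and the other 6 (Hoxa2, Hoxa4, Hoxb1, Hoxb7, Hoxd1 and Hoxd3) had means from 5.51 to 12.8. By cluster, 4 of 9 Hoxa, 6 of 9 Hoxb, 5 of 7 Hoxc and 2 of 8 Hoxd genes did. The median Hox gene lay at percentile 32.6 of all genes, and only Hoxa5 (percentile 74.0) and Hoxb6 (68.7) lay above the 60th. Probe sets differ in how strongly they bind, so these signals show which members were measurable, not which transcript was more abundant, and a dim signal does not show that a gene is silent.

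**Figure D1:**
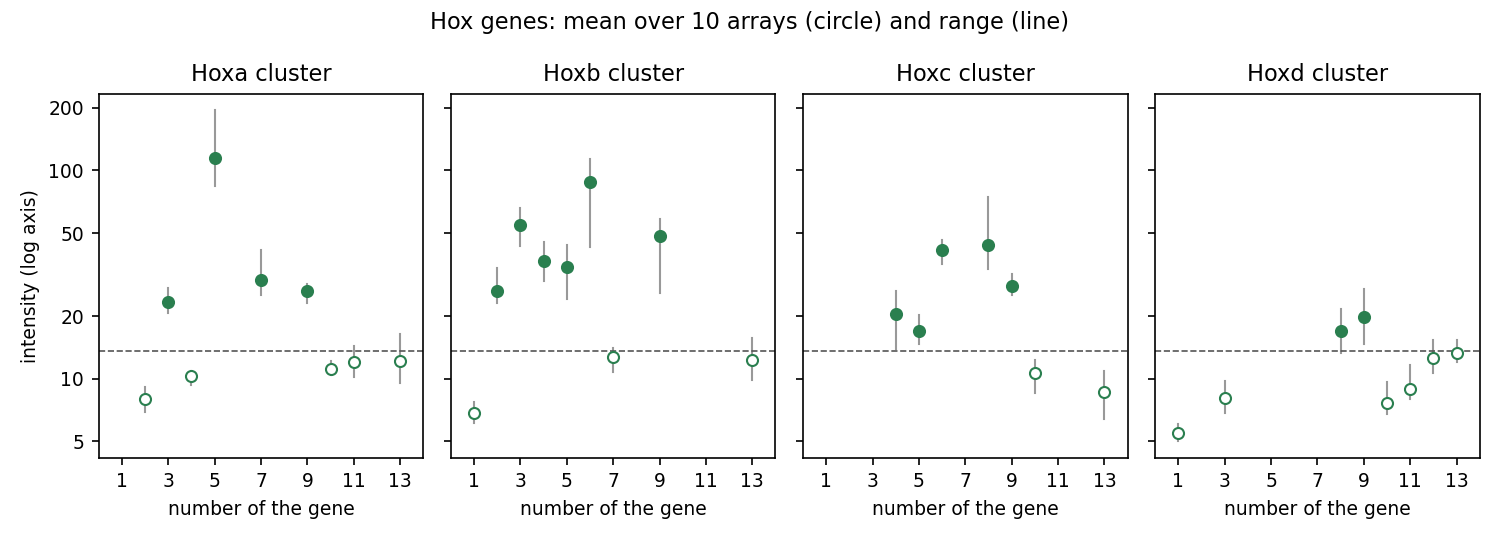
Intensity (vertical log axis) of the 33 Hox genes by cluster and gene number (horizontal axis). Circles are means over the 10 arrays, lines run from the lowest to the highest array, filled circles are the 17 genes above the low-value filter (dashed line, 13.6); all 10 genes numbered 10 to 13 have open circles.

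The arrays themselves were checked against markers of tissue and segment. Array medians lay between 18.4 and 18.8, no pair of arrays was identical, and the number of arrays, above all the 2 controls, limits the precision. Nothing beyond the separate numbers says that each sample is a separate animal, so the tests rest on the spread among these samples, which may be technical. The stated source is whole right lung, yet transcripts of intestinal epithelium were among the brightest. Cftr read 131 and 137 in the controls and 19.7 to 35.4 in the knockouts, in the direction of the labels (log2 difference -1.91 ± 0.16, SE; limma adjusted p = 0.00528).

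Markers of the ileum differed in how evenly they were seen. Fabp6, which binds bile acids inside ileal cells, read 3125 to 5715, and Slc10a2, the ileal bile acid importer, 142 to 252. Fgf15, the ileal hormone that restrains bile acid synthesis, varied from 15.6 in knockout H replicate 1 to 295 in control replicate 1. Members of the proximal list ranged from dim to bright. Gata4, the transcription factor of duodenum and jejunum, read 12.3 to 18.3, lactase (Lct) 13.2 to 19.3 and Onecut2, a duodenal factor, 6.68 to 8.88. Apoa4, an apolipoprotein of absorptive cells, read 506 to 2269, the iron exporter Slc40a1 322 to 663 and the fatty acid binding protein Fabp1 26.9 to 159. Lung transcripts were also present, some of them bright. Of the 12 measured genes of the lung epithelium list, 3 lay in the brightest 5% of all genes. All 8 measured genes of the small intestine epithelium list did. Scgb1a1, of the lung epithelium list, read 2011 to 5610. Sftpc, surfactant protein C of the alveoli, was lowest at 1099 and highest at 4169, in knockout H replicate 2, which with knockout H replicate 5 was highest on the lung epithelium list (mean log2 deviations 0.90 and 0.63). Lung mesenchyme expresses Hox genes of low and middle number too, and bulk RNA cannot tell fewer cells of a type from less RNA per cell.

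Knockouts were then compared with controls, in a linear model that also held the number range and the letter M or F, to ask whether loss of Cftr went with another Hox profile. Both controls are of the lower range, so the fitted difference sets the 3 knockouts of that range against the 2 controls. The knockouts of the upper range enter only through the letter term and the spread. None of the 17 Hox genes passed the threshold (limma, Benjamini-Hochberg adjusted p under 0.05 over 13644 genes), where 4.31% of all genes did (1.52% higher and 2.79% lower). None had an unadjusted p under 0.05 either, against 19.4% of all genes, and the smallest adjusted p was 0.319. The fitted difference, adjusted for range and letter, was above 0 for 8 of the 17 and below 0 for 9, with a median of -0.02 (log2), against -0.0047 over all genes. The plain group means were higher in knockouts for 6 and lower for 11, and the fitted sign differed from them for Hoxa9 and Hoxb9. On the log2(intensity + 16) scale, the 95% intervals excluded a change above 2-fold in either direction for all 17 and above 1.5-fold for 15. The exceptions at 1.5-fold on that scale were Hoxa5 and Hoxb6, whose intervals reached 0.97 and 0.96. These bounds do not necessarily hold in plain intensity, where fold changes are larger.

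Among the genes of low number, Hoxb4, known for its role in blood stem cells, had the smallest p. It read 45.6 and 36.8 in the controls, 44.7, 29.5, 36.3, 32.7 and 29.5 in knockout H replicates 1 to 5, and 36.6, 36.6 and 37.3 in knockout L replicates 1 to 3. The groups overlapped, and the log2 difference was -0.24 ± 0.12 (SE; limma adjusted p = 0.319). Hoxb2, a hindbrain patterning gene, read 26.7 and 34.1 in the controls, 23.9, 28.2, 25.8, 25.2 and 23.1 in the H knockouts and 24.8, 25.4 and 26.5 in the L knockouts. Control replicate 2 alone stood above all knockouts, and the log2 difference of -0.17 ± 0.09 did not pass (limma adjusted p = 0.329). Hoxb3 read 49.7 and 44.3 in the controls, 65.8, 43.5, 66.3, 44.1 and 60.5 in the H knockouts and 56.0, 62.6 and 55.2 in the L knockouts. For Hoxb3, 6 knockouts lay above both controls and 2 below both. The second probe sets of Hoxb3 and Hoxb4 were highest in control replicate 2 (50.1 and 32.8), unlike the first ones. For Hoxb4 the mean was lower in knockouts on both probe sets (35.4 against 41.2, and 23.2 against 29.1 on the second). For Hoxb3 it was higher in knockouts on the first (56.8 against 47.0) and lower on the second (42.7 against 47.9).

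Hoxa5, which patterns the lung and the cervical to thoracic spine, had the highest signal. It read 97.1 and 86.9 in the controls, 83.9, 104, 139, 99.2 and 137 in the H knockouts and 195, 85.6 and 116 in the L knockouts. Knockout L replicate 1 was highest and knockout H replicate 1 lowest, so that knockouts stood on both sides of the controls (log2 difference 0.34 ± 0.28; limma adjusted p = 0.575). The array highest in lung transcripts, knockout H replicate 2, read 104, and knockout L replicate 1, highest for Hoxa5, stood at -0.30 on the lung list. A second Hoxa5 probe set read 17.6 on knockout L replicate 1 and was highest in control replicate 2 (30.0), so the 2 probe sets did not order the arrays alike. The labels do not say which part of the transcript each covers.

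Hoxb6, of the middle of its cluster, read 69.1 and 92.2 in the controls, 113, 42.8, 110, 77.0 and 111 in the H knockouts and 86.1, 72.1 and 108 in the L knockouts. Hoxb5, needed by the neural crest cells that form the enteric nervous system, read 35.3 and 43.9 in the controls, 37.1, 24.2, 35.4, 32.9 and 35.6 in the H knockouts and 32.4, 26.8 and 38.6 in the L knockouts. Hoxb9 read 48.4 and 51.7 in the controls, 45.7, 25.9, 50.5, 58.6 and 47.0 in the H knockouts and 58.2, 45.1 and 55.0 in the L knockouts. In all of Hoxb5, Hoxb6 and Hoxb9 the controls lay inside the range of the knockouts or, for Hoxb5, had 1 control above it, and knockout H replicate 2 was the lowest array.

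Hoxc8, which patterns the lower thoracic level, read 36.4 and 74.5 in the controls, 33.7, 33.7, 48.6, 47.2 and 44.8 in the H knockouts and 42.4, 36.4 and 39.1 in the L knockouts. Control replicate 2 stood apart from the other 9 arrays, which ended at 48.6. The same array was highest on the smooth muscle list (0.58, control replicate 1 lowest with -0.48), and Myh11, the smooth muscle myosin, read 716 there and 211 in control replicate 1. The part of muscle in this value was not tested. Hoxc6 varied little, with 41.7 and 46.5 in the controls, 41.5, 41.4, 43.8, 40.5 and 39.4 in the H knockouts and 41.2, 35.7 and 41.5 in the L knockouts. Hoxa9, the most posterior member above the filter in its cluster, read 28.2 and 26.5 in the controls, 26.3, 23.2, 27.5, 26.4 and 27.6 in the H knockouts and 24.9, 24.2 and 28.5 in the L knockouts. Hoxc9, the last above the filter in its own, read 26.1 and 29.1 in the controls, 32.0, 25.1, 28.1, 25.9 and 30.8 in the H knockouts and 28.2, 25.3 and 29.5 in the L knockouts. For both, the controls lay inside the range of the knockouts (fitted log2 differences 0.0053 and 0.05). Of the members left, Hoxa3 read 20.8 to 27.3, Hoxa7 25.2 to 41.4 (highest in knockout L replicate 3) and Hoxc5 14.7 to 20.1, with the controls at both ends. Among the 8 knockouts the SD of log2 values had a median of 0.14 over the 17 Hox genes and 0.12 over all genes. It was largest for Hoxb6, at percentile 96.3 of all genes, Hoxa5 (95.5) and Hoxb9 (90.5), and smallest for Hoxc5 (0.403).

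**Figure D2:**
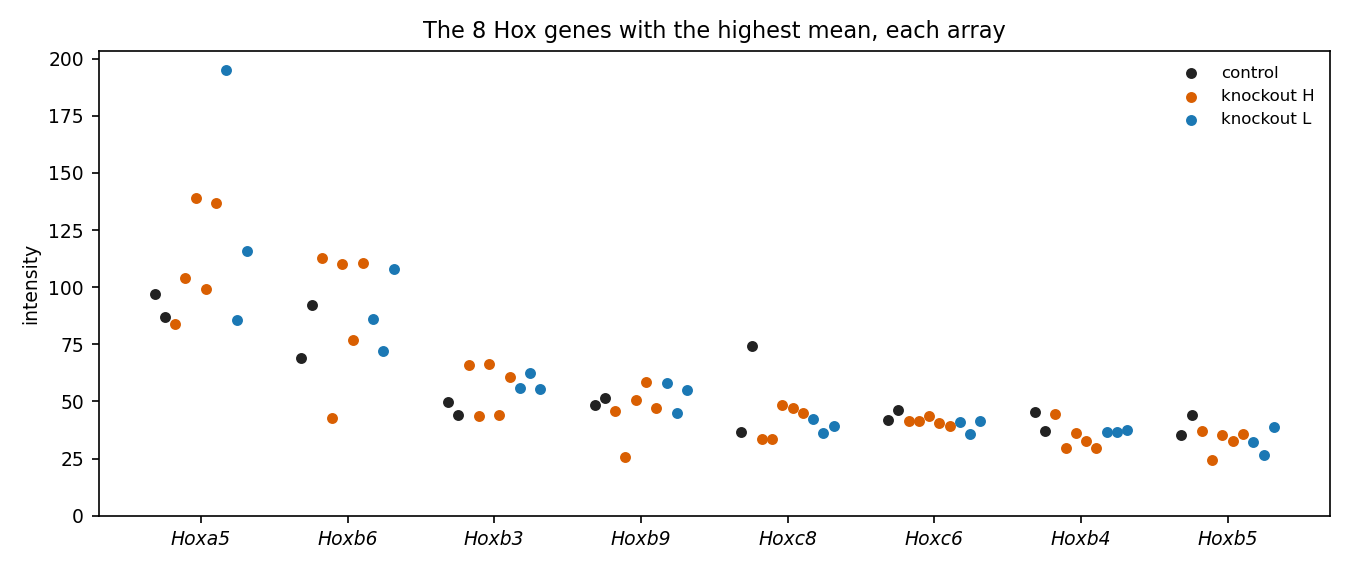
Intensity (vertical axis, from 0) of the 8 Hox genes with the highest mean, with a point for each array, controls in black, knockout H in orange and knockout L in blue. Both controls lie inside the range of the knockouts for Hoxa5, Hoxb3, Hoxb6 and Hoxb9, and 1 control lies above it for Hoxb4, Hoxb5, Hoxc6 and Hoxc8; Hoxc8 of control replicate 2 (74.5) and Hoxa5 of knockout L replicate 1 (195) stand out.

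Hoxd9, the most posterior Hoxd gene above the filter, was the single member whose groups did not overlap between knockouts and controls, where 21.8% of all genes did not overlap. It read 23.8 and 26.9 in the controls, 18.6, 14.6, 16.4, 22.9 and 20.2 in the H knockouts and 16.6, 16.3 and 22.1 in the L knockouts. The knockouts of the lower range (22.9, 20.2 and 22.1) came close to the controls, and the 5 of the upper range (14.6 to 18.6) lay below all of these. In the model, which accounts for the range, the difference from controls was -0.13 ± 0.08 (limma adjusted p = 0.402).

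The number range was compared in its own right, within the knockouts, since the upper range holds no control; the labels do not say what the number stands for. None of the 17 Hox genes passed, where 0.300% of all genes did (0.132% higher and 0.169% lower in the upper range), and 1 had an unadjusted p under 0.05, against 10.2% of all genes. That gene was Hoxd9, at 16.5 ± 1.42 (SD, n = 5) in knockouts of the upper and 21.7 ± 1.34 (n = 3) in knockouts of the lower range. Its fitted difference on the log2(intensity + 16) scale, adjusted for group and letter, was -0.22 ± 0.08 (limma adjusted p = 0.389). Hoxd9 was also the 1 member whose ranges, with the controls counted in the lower, did not overlap, against 6.90% of all genes. The fitted difference was below 0 for 13 of 17 Hox genes, with a median of -0.09 (log2), against -0.0044 over all genes. The plain means of the knockouts were lower in the upper range for 11. Hoxb5 followed with -0.22 ± 0.12 (limma adjusted p = 0.569). The fitted differences of the 7 tested genes of the colon list were also below 0 (median -0.84), none past the threshold, as were those of 10 of 11 smooth muscle genes (median -0.27). What part these have in the Hox values was not tested. On the log2(intensity + 16) scale, the 95% intervals excluded a 2-fold difference for 16 of the 17 Hox genes, with Hoxb6 as the exception (-1.05 to 0.25).

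H and L knockouts, whose codes the labels leave unexplained, were compared next. None of the 17 Hox genes passed, as none of all 13644 genes did (0%). An unadjusted p under 0.05 was seen for 2 of the 17, and for 2.22% of all genes. Hoxc4, a gene of the cervical level, read 21.5, 19.5, 26.3, 21.4 and 20 in the H knockouts, 17.3, 20.9 and 14 in the L knockouts and 21.2 and 22.1 in the controls. The lowest value was in knockout L replicate 3, and the log2 difference of 0.22 ± 0.09 had a limma adjusted p of 0.9998. Hoxd8 read 16.4, 13.3, 14.8, 15.7 and 15.9 in the H knockouts, 17.2, 16.4 and 21.5 in the L knockouts and 17.5 and 20.8 in the controls. The L knockouts of Hoxd8 did not overlap with the H knockouts, though the nearest samples both read 16.4, and 1.55% of all genes did not overlap (log2 difference -0.17 ± 0.07). On the log2(intensity + 16) scale, though not necessarily in plain intensity, the intervals excluded a 2-fold difference for all 17.

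Between the letters M and F, none of the 17 Hox genes passed, where 0.0220% of all genes did (0.0147% higher and 0.00733% lower in M), and none had an unadjusted p under 0.05, against 4.83% of all genes. Hoxa5 had the smallest p, at 124 ± 42.0 (SD, n = 6) in M and 99.4 ± 12.4 (n = 4) in F (log2 difference 0.44 ± 0.23; limma adjusted p = 0.934), and Hoxc8 followed with 0.30 ± 0.17. No member had M and F apart without overlap, against 0.645% of all genes. The fitted difference was above 0 for 14 of 17 members, with a median of 0.04 (-0.0078 over all genes), while the plain means were higher in M for 9. Fitted differences were above 0 for 11 of 11 smooth muscle genes (median 0.53) and 6 of 7 colon genes (median 0.77) as well, and their part in the Hox values was not tested.

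**Figure D3:**
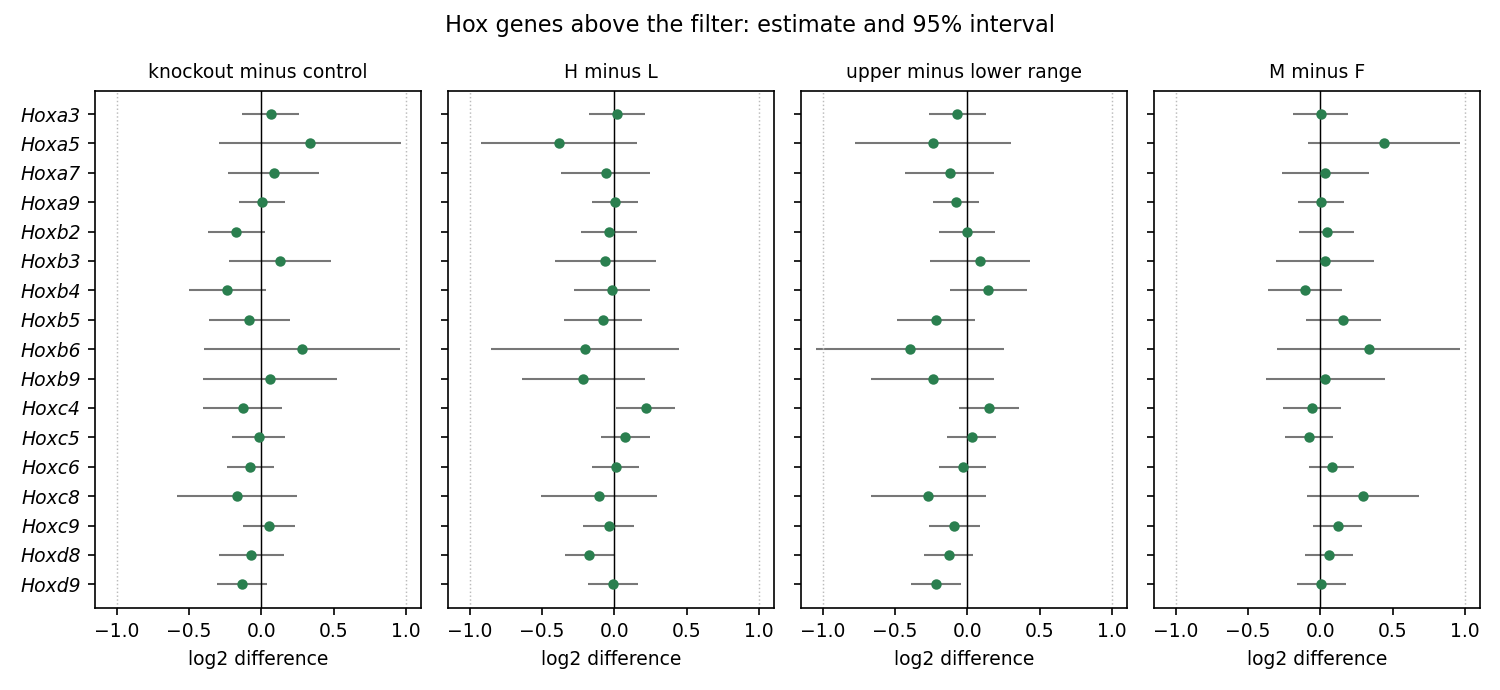
Log2 differences on the log2(intensity + 16) scale (horizontal axis) of the 17 Hox genes above the filter in the 4 comparisons, as points with 95% intervals; dotted lines mark a 2-fold change. Only the interval of Hoxb6 between the number ranges, at -1.05, passes a dotted line.

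Knockout H replicate 2 had the lowest value of the 10 arrays for 8 of the 17 Hox genes above the filter (Hoxa9, Hoxb3, Hoxb5, Hoxb6, Hoxb9, Hoxc9, Hoxd8 and Hoxd9), while it was lowest for 13.9% of all genes tested. Its second probe sets of Hoxb3 (29.1) and Hoxb4 (17.2) were also the lowest of their kind. Further probe sets of Hoxc5 (13.5), Hoxa3 (7.78) and Hoxd13 (6.43) were lowest there too, all dimmer than the filter level of 13.6. The remaining further probe sets of single Hox genes were lowest on other arrays. Among these, the second probe set of Hoxa9 was lowest in knockout H replicate 4 (7.71) and that of Hoxd8 in knockout H replicate 5 (7.78). Knockout H replicate 2 was the highest array for Hoxa3 (27.3), and its mean log2 deviation over the 17 genes was -0.16, against -0.09 to 0.07 on the other arrays. The same array was highest in lung epithelium transcripts (0.90) and low in smooth muscle transcripts (-0.44). Knockout H replicate 5, second in lung transcripts (0.63), had Hoxb6 at 111 and a mean Hox deviation of 0.04, and control replicate 1, lowest in smooth muscle transcripts (-0.48), had one of 0.0016. What part lung or muscle has in the values of knockout H replicate 2 was not tested. When both of these lung-rich arrays were dropped, 0 Hox genes passed in each comparison (limma), as with all arrays; the counts at an unadjusted p under 0.05 were 0 between knockouts and controls and 1 in each of the others. Without knockout L replicate 3 and control replicate 2, the arrays highest in colon transcripts, 0 Hox genes passed as well, with an unadjusted p under 0.05 for 1 gene between M and F and for 0 in the others (both sets of arrays were chosen after their values were seen).

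The genes numbered 10 to 13 were read only as a description, since all lay below the filter, near the level where signal and background meet. Knockout L replicate 3 was the highest array for 6 of these 10 genes, while it was highest for 18.1% of all genes below the filter. Hoxa13, which specifies the hindgut and the digits, read 16.3 there, 13.1 and 14.3 in the controls and 9.58 to 13.7 in the other 7 knockouts. Hoxb13, a gene of the hindgut and prostate, read 15.7 there, 14.5 and 13.5 in the controls and 9.89 to 12.4 in the others. Hoxa11, of limb and uterus, read 14.4 there and 10.1 to 12.7 elsewhere. Hoxd10, Hoxd11 and Hoxd12, which pattern the limb and the posterior trunk, read 9.63, 11.7 and 15.3 there and at most 8.62, 9.18 and 13.4 elsewhere. Hoxd13, the last gene of its cluster, did not follow, with 12.7 in knockout L replicate 3 and its highest value (15.4) in knockout H replicate 1. Hoxa10, Hoxc10 and Hoxc13 were likewise highest on other arrays, and for Hoxa10 knockout L replicate 3 was the lowest array (10.4). Between the lowest and the highest array none of the 10 spanned more than 1.70-fold.

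Some transcripts of the large bowel were unevenly spread over the arrays. On the colon list, knockout L replicate 3 had the highest mean log2 deviation (1.47) and control replicate 2 the next (0.86), and knockout H replicate 2 (-0.78) and control replicate 1 (-0.69) the lowest. Car1, a carbonic anhydrase of the colon, read 5827 in knockout L replicate 3, 2682 in knockout H replicate 1, 2041 in control replicate 2 and 1120 in knockout H replicate 5, and 10.1 to 240 on the other 6. Cyp2c55, a cytochrome P450 of caecum and colon, read 824 in knockout L replicate 3 and 215 in control replicate 2, and 7.19 to 26.6 on the others. Insl5, a hormone of colonic endocrine cells, read 42.4 in knockout L replicate 3 and 7.89 to 17.3 elsewhere, and the water channel Aqp8 119 in control replicate 2, 50.4 in knockout L replicate 3 and 14.7 to 24.0 elsewhere. Car1, Cyp2c55, Insl5 and Aqp8 were singled out after their values were seen. The other 4 measured genes of the list followed other orders. Car4, a further carbonic anhydrase, was highest in knockout L replicate 1 (3044) and B3galt5 in knockout H replicate 3 (257), while Slc26a3, the chloride and bicarbonate exchanger, spanned 211 to 432 and Fxyd4 19.1 to 24.7. High and low arrays of Car1 occurred among the controls and in both knockout groups, whereas Cyp2c55 was at most 11.4 and Insl5 at most 9.97 in the H knockouts. No gene of the list passed between knockouts and controls. Over the 10 Hox genes of high number the mean deviation was 0.08 in knockout L replicate 3 and between -0.05 and 0.03 on the other arrays, with both controls (0.03 and 0.02) near the upper end.

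**Figure D4:**
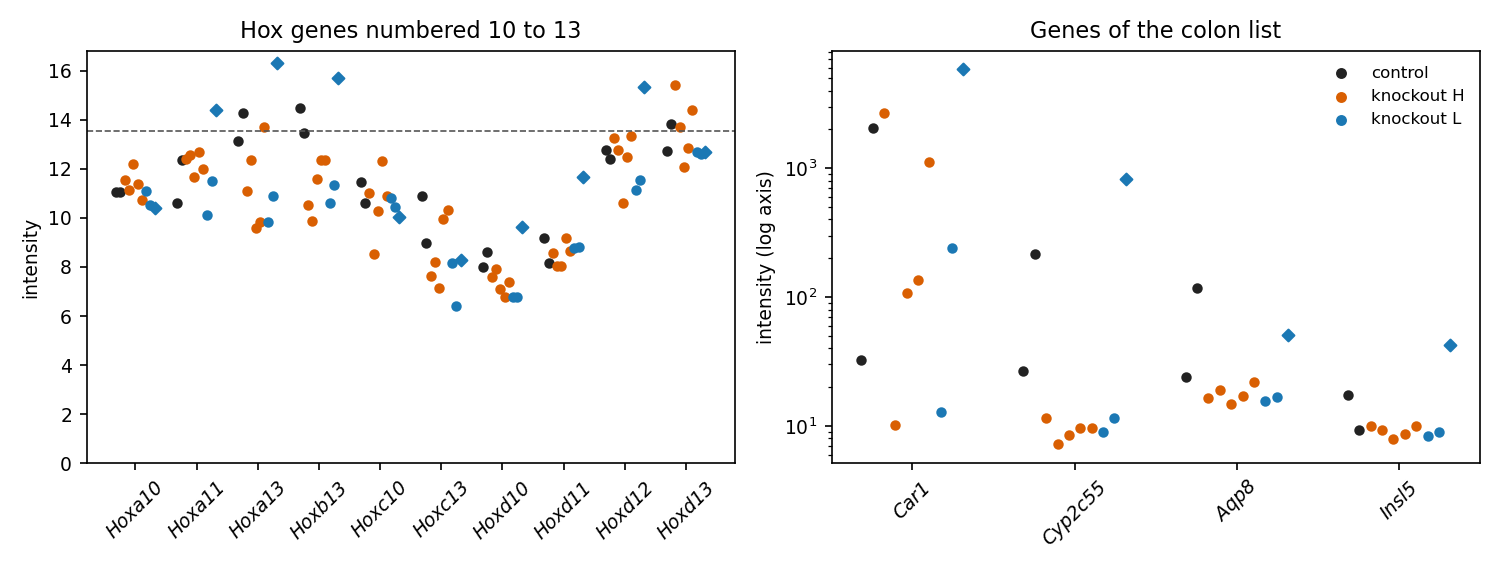
Left, intensity (from 0) of the 10 Hox genes numbered 10 to 13, with the low-value filter as a dashed line; right, intensity (log axis) of 4 genes of the colon list. Each point is an array, controls in black, knockout H in orange and knockout L in blue, with knockout L replicate 3 as a diamond: it is highest for 6 of the 10 Hox genes, and for Car1 (5827), Cyp2c55 (824) and Insl5 (42.4).

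Marker lists of gut segments, chosen with earlier results of these data known, were set beside the Hox genes between knockouts and controls. A difference between the lists and the Hox genes was not tested. Over all 13644 genes, 4.31% passed in this comparison (1.52% higher and 2.79% lower). The fitted difference was below 0 for all 11 genes of the distal small intestine list (median -0.69, log2), the plain means were lower in knockouts for 10 (not for Gcg, 548 ± 94.5 against 542 ± 228, SD), and 5 passed the threshold, all lower. Slc51b and Slc51a, the subunits of the bile acid exporter of ileal enterocytes, fell by 0.75 and 0.69 on the log2 scale, and Cubn and Amn, the subunits of the ileal receptor for vitamin B12 with intrinsic factor, fell by 2.60 and 1.55. The gut peptide Nts fell by 0.83. Fabp6 (3806 ± 444, SD, n = 8, against 5440 ± 388, n = 2) did not pass (limma adjusted p = 0.082). Slc10a2, at 188 ± 42.9 and 214 ± 4.46, did not either (-0.11 ± 0.20, limma adjusted p = 0.825). That count of 5 fell to 3 without knockout L replicate 3 or knockout H replicate 5 and to 0 without either control. None of the 11 tested proximal small intestine genes passed (median 0.14). The mean deviations of the distal list were 0.85 and 0.41 in the controls and -0.32 to 0.07 in the knockouts, without overlap, while those of the 17 Hox genes were 0.0016 and 0.07 in the controls and -0.16 to 0.07 in the knockouts. Of the 8 measured genes of the small intestine epithelium list, 3 passed, all lower: Vil1 (-0.51), Fabp2 (-0.93) and Anpep (-1.23). Alpi (-0.96), Krt20 (-0.15), Epcam (-0.11), Cdh17 (-0.02) and Lgals4 (0.02) did not pass. Of the muscle and connective tissue lists, no smooth muscle gene of 11 passed, and of 9 gut fibroblast genes only Lum, a matrix proteoglycan, rose (0.95). Of 10 enteric neuron and glia genes, the neuropeptide Vip rose (1.43). None of the tested stomach (7), lung epithelium (11), lung mesenchyme (3) or leukocyte (7) genes passed. Nkx2-3, a homeodomain factor of the midgut mesenchyme, read 80.4 and 72.9 in the controls and 61.4 to 76.0 in the knockouts (-0.13 ± 0.10, limma adjusted p = 0.538).

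**Figure D5:**
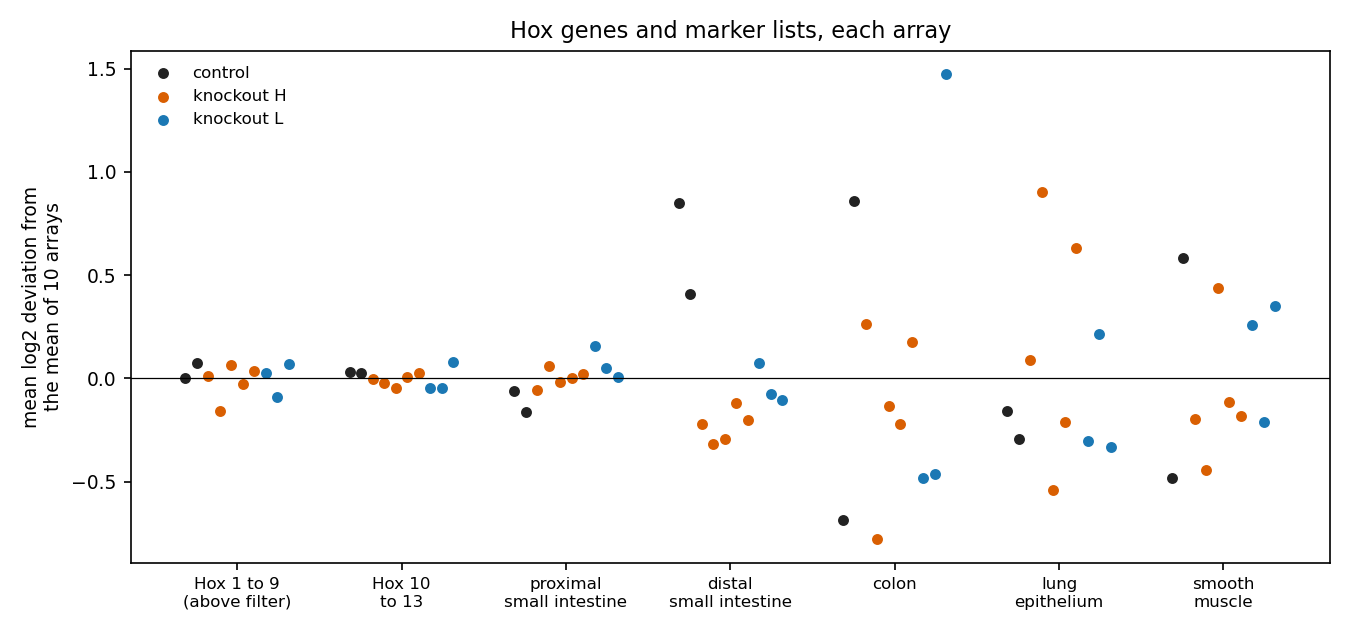
Mean log2 deviation (vertical axis) from the 10-array mean over the genes of each list (horizontal axis), with a point for each array, controls in black, knockout H in orange and knockout L in blue. Hox genes spread between -0.16 and 0.08, the colon list between -0.78 and 1.47, and the distal small intestine list has both controls (0.85 and 0.41) above all knockouts.

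Genes that act with or upstream of the Hox clusters were taken from lists. Among the ParaHox genes, which are sisters of the Hox clusters, Cdx2 read 502 and 456 in the controls and 237 to 321 in the knockouts (-0.85 ± 0.12; limma adjusted p = 0.0111). Its paralogue Cdx1 read 323 and 290 in the controls and 258 to 364 in the knockouts and did not pass (0.07 ± 0.11, limma adjusted p = 0.803). None of the 7 tested Hox cofactors of the Pbx, Meis and Pknox families passed. Pbx2 had the smallest p, at 102 and 117 in the controls and 65.4 to 89.7 in the knockouts (-0.28 ± 0.08, limma adjusted p = 0.109). Meis2, which read 38.1 in control replicate 2, was 12.7 to 27.9 on the other arrays, and this was the array highest for Hoxc8 and smooth muscle. None of 15 Polycomb genes, which keep Hox genes silent through histone marks, passed (median 0.02), nor did any of 9 Trithorax and demethylase genes, which oppose them (median -0.18), nor any of 12 genes of the retinoic acid pathway, which sets Hox expression in the embryo (median -0.08). The calls of Cdx2 and of the distal genes were lost without either control (Cdx2 limma adjusted p = 0.156 without control replicate 1 and 0.0712 without control replicate 2).

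Of 9 genes that flank the Hox clusters, 1 passed between knockouts and controls, where 4.31% of all genes did. Skap2, a signalling adaptor beside the Hoxa cluster, read 164 and 201 in the controls and 244 to 303 in the knockouts, all 8 above both controls (0.62 ± 0.10; limma adjusted p = 0.0175). Its neighbours among the Hoxa genes above the filter, Hoxa3, Hoxa5, Hoxa7 and Hoxa9, did not pass (0.06, 0.34, 0.09 and 0.0053). Skap2 and the Hoxa cluster lie on the chromosome of Cftr (chromosome 6), and linked strain alleles and the knockout itself cannot be told apart. Evx1, at the other end of the Hoxa cluster, and Evx2, beside Hoxd13, differed by -0.01 and -0.02 without passing.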

How the data were processed

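The values the authors deposited are linear intensity, for each of 10 arrays in a joint file, with summarization and scaling not given in the sources used here; they were used without further normalization, as log2. Probe sets numbered 45101, of which 64 were array controls; of the rest, the platform annotation gave 1 symbol for 34945, several for 932 and none for 9160, and 34741 symbols were updated through gene identifiers with the RefSeq list of GRCm38.p6. Each gene was taken through its probe set with the highest mean log2(intensity + 16), and genes at or below the 25th percentile of means were left out, leaving 13644. Fold changes are on that scale and understate those of dim genes. The fits, tested on simulated data first, used lmFit and eBayes of limma 3.58.1 (R 4.3.3) over all genes, with number range and letter as covariates and p-values adjusted after Benjamini-Hochberg; knockout versus control used 2 groups, the others 3 groups with a shared spread. Through the range covariate, knockout versus control sets the 3 knockouts of the lower range against the 2 controls. The upper range enters only through the letter term and the spread. Intervals cover 95%. Values in every sample are given for Hox genes past the threshold, the 2 with the smallest p per comparison, the 8 highest in mean and the last above the filter in each cluster; other genes are fixed markers and up to 3 members per list past the threshold, and further ones where named after their values were seen. Lists are described by counts and medians. Alternatives changed pseudocount, filter, normalization, probe set rule, covariates and samples. The members and lists were chosen with earlier results of these data known. Figures were made in matplotlib 3.10.9.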

Additional observations from a re-analysis of the deposited data

Results flagged for a closer look

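In the group of 5 H knockouts, 50 results (Hox genes above the filter, other named genes and lists) were searched for a sample far from the others by Dixon's gap, which chance flags in about 1 of 20 groups; 3 were. Hoxa9 read 23.2 in knockout H replicate 2 and 26.3 to 27.6 in the other 4. Hoxc5 read 15.8 in knockout H replicate 1 and 17.3 to 17.8 in the others. Myh11, the smooth muscle myosin, read 637 in knockout H replicate 3 and 234 to 311 in the others.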

How the results depend on the processing

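The count of Hox genes past the threshold was 0 under each of the alternatives run: 24 for knockout versus control (smallest adjusted p 0.0949, without covariates), 22 for H versus L (0.851), 21 for the number range (0.181) and 21 for M versus F (0.686); for the 2 Hox genes with the smallest p in each comparison, the sign of the difference was kept in each alternative. The number of Hox genes above the filter fell from 17 to 8 with a filter at the median of gene means. The 5 distal small intestine calls became 0 to 5 when 1 array was left out, 0 without the 2 arrays highest in colon transcripts (chosen after these were seen) and 1 for the L knockouts alone against control. The 588 genes called between knockouts and controls became 0 without control replicate 1, 57 without control replicate 2, 121 without knockout H replicate 4, 191 without knockout L replicate 3, 263 without knockout H replicate 5, 10 without both arrays highest in colon transcripts, 1366 without covariates, 1033 in the lower range alone, 331 for H and 47 for L against control and 935 with lung transcripts as a covariate; the cause was not tested beyond the smaller groups. The 41 genes called between number ranges became 0 without knockout H replicate 5 or without both arrays highest in colon transcripts, 1 without both highest in lung transcripts, 6, 7 and 11 without knockout L replicates 3 and 2 and knockout H replicate 4, and 150 without the letter. The call of Skap2 was lost in 6 of 24 alternatives and that of Nts in 13. No paired analysis was possible because the labels give no replicate numbers that groups share. Signals below the filter lie close to background and limit what can be said of the genes numbered 10 to 13.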

Other observations

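Probe sets listed for 2 Hox genes together cannot be given to either. That of Hoxb8 and Hoxb7 read 24.2 and 32.5 in the controls and 19 to 29.2 in the knockouts, with knockout H replicate 2 lowest. Those of Hoxd4 and Hoxd3 read 20.8 to 30.9 and 10.7 to 15.9 over the 10 arrays.

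Transcripts annotated as opposite-strand partners of Hox genes were read too. Hoxb5os read 29.6 and 35.9 in the controls, 28.1, 15.1, 19.4, 27.2 and 30.7 in the H knockouts and 18.6, 12.5 and 46.6 in the L knockouts, so that L knockouts held both the lowest and the highest value. In the lower number range it read 27.2 to 46.6 and in the upper range 12.5 to 28.1. The 2 probe sets of Hoxd3os1 went apart: that with the higher mean read 9.59 and 12.8 in the controls and 13 to 22.0 in the knockouts, the other 10.9 and 9.48 against 7.75 to 10. Hoxa11os read 9.31 to 12.1 on its brighter probe set, with no separation of the groups. These transcripts were singled out after their values were seen and were not tested.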
